A study of Mus musculus with 5 samples.

Results

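The keratins and trichohyalin of the inner root sheath of the hair follicle were followed in RNA-seq of mouse ear skin. The 10 genes were taken by symbol from a count table of 27179 Entrez genes: the type I keratins Krt25, Krt26, Krt27 and Krt28, the type II keratins Krt71, Krt72, Krt73 and Krt74, trichohyalin (Tchh) and trichohyalin-like 1 (Tchhl1). All 10 had a row in the table, and 9 passed the filter on low counts. The samples were 3 control and 2 knockout (KO) skin samples of B6 mice, the KO titled Cd1d -/- and the controls titled Cd1d +/-. The genotype tag of the controls reads WT, so they are called controls here. Cd1d encodes a surface molecule that shows lipid antigens to natural killer T cells, and the series compared skin with and without it. The labels give no treatment, age or sex for these samples and do not say whether each library came from a separate mouse, so p-values measure only the spread between the 5 libraries, which may be technical.

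The inner root sheath is a sleeve of cells that surrounds and moulds the growing hair shaft and is shed before the hair leaves the skin. It is made by dividing matrix cells at the base of the follicle while the follicle is in its growth phase, called anagen, and is lost when the follicle rests. Keratins assemble into filaments as pairs of a type I and a type II chain, and trichohyalin is the matrix protein between these filaments. Peptidylarginine deiminases turn arginines of trichohyalin into citrulline and transglutaminases then crosslink it, which hardens the sheath. In human follicles KRT25, KRT27, KRT28 and KRT71 are found through all layers of the sheath, KRT26, KRT72 and KRT73 in its cuticle, and KRT74 in the Huxley layer.

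Total counts ran from 32353957 to 79160005 per library, and 1 count equals 0.0119 to 0.0303 CPM (a count relative to its TMM-scaled library size). Cd1d1, the targeted gene, had 61 counts in KO replicate 1 and 48 in KO replicate 2, against 557, 757 and 182 in the controls (replicates 1, 2 and 3, the order used throughout), so the labels and its level pointed the same way. The sheath genes are expressed by a small part of ear skin, and in whole tissue more cells of a type and more RNA per cell cannot be told apart.

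All 10 genes had their highest level in KO replicate 1, and for 9 of them that level was 8.1 to 92.8 times the next highest library. KO replicate 2 did not share this: 8 of the 9 tested genes lay within the range of the controls there. The 10 genes together took up 0.0609% of all counts in KO replicate 1, against 0.00128% to 0.00216% in the 3 controls and 0.00157% in KO replicate 2. Summed over the genes this was 651 CPM in KO replicate 1 against 18.2, 12.3 and 21.2 CPM in the controls and 16.6 CPM in KO replicate 2. A library at least 5 times above every other one, a limit chosen after the values were seen, was found for KO replicate 1 in 83 of 17472 tested genes (0.475%), and 9 of these were sheath genes. Among the 9, Krt26 and Krt72 passed the filter on low counts only through KO replicate 1 and control replicate 3. Their place among the tested genes thus rests on KO replicate 1, in which they were high.

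**Figure D1:**
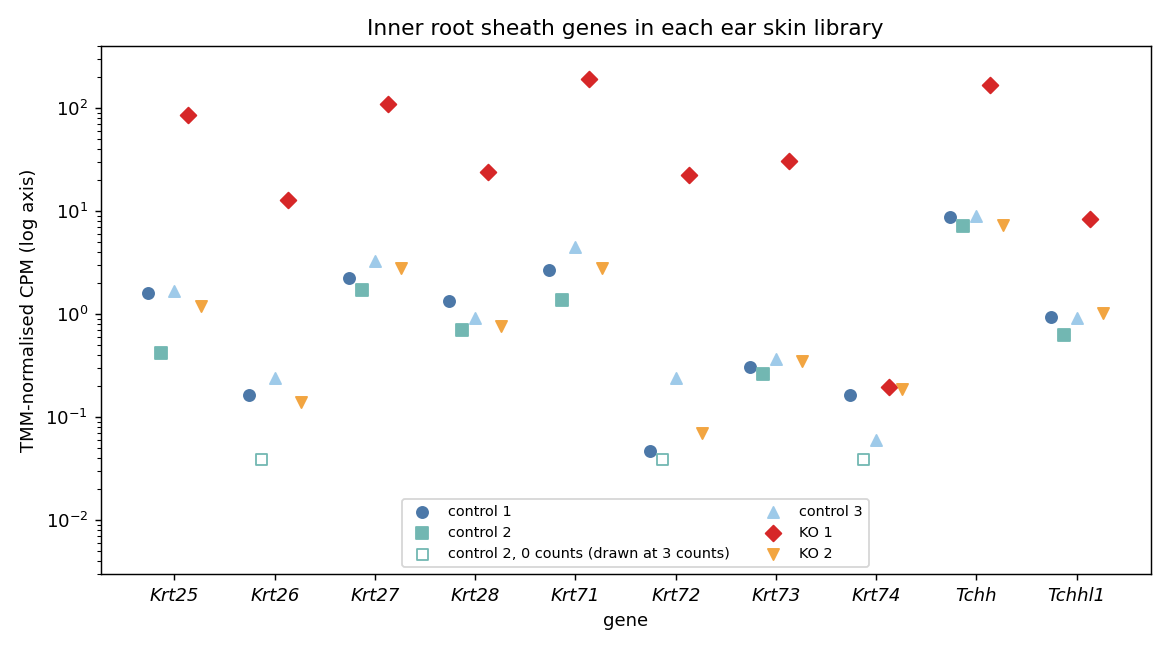
Level of the 10 inner root sheath genes in each library, as TMM-normalised CPM on a log axis, with open symbols for 0 counts drawn at the level of 3 counts. KO replicate 1 (red diamonds) stands 8.1 to 92.8 times above the next library for every gene except Krt74.

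Among the type I keratins, Krt27 had the highest level per length. Krt27, a type I chain of the whole sheath, had 187, 131 and 108 counts in the controls, 5562 in KO replicate 1 and 119 in KO replicate 2. This corresponds to 2.22, 1.71 and 3.28 CPM in the controls, 109 CPM in KO replicate 1 and 2.78 CPM in KO replicate 2. KO replicate 2 thus lay between the controls, while KO replicate 1 stood 33.2 times above control replicate 3 (95% counting interval 27.5 to 40.6, exact binomial). Krt25, found in the same layers, had 136, 32 and 55 counts in the controls, 4368 in KO replicate 1 and 51 in KO replicate 2. The controls themselves were spread for Krt25, from 0.417 CPM in control replicate 2 to 1.67 CPM in control replicate 3, and KO replicate 2 (1.19 CPM) fell inside that range. KO replicate 1 reached 85.5 CPM, 51.3 times control replicate 3 (39.3 to 68.2). Krt28 had 114, 54 and 30 counts in the controls, 1225 in KO replicate 1 and 33 in KO replicate 2. Its ratio of KO replicate 1 to the next library was 17.7 (14.6 to 21.7), the smallest of the 4 type I genes, and its interval did not meet those of Krt25, Krt26 and Krt27. Krt26, a chain of the sheath cuticle, was close to the limit of detection outside KO replicate 1, with 14, 0 and 8 counts in the controls and 6 in KO replicate 2, against 649 in KO replicate 1. The 0 counts of control replicate 2 allow up to 0.0391 CPM (3 counts). The counting intervals cover counting error only and not the spread between mice.

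Of the 4 type II keratins, 3 were far higher in KO replicate 1 and 1, Krt74, was not. Krt71, the type II chain of the whole sheath, had 226, 106 and 148 counts in the controls, 9764 in KO replicate 1 and 121 in KO replicate 2. Its level was 2.68, 1.38 and 4.49 CPM in the controls, 191 CPM in KO replicate 1 and 2.82 CPM in KO replicate 2. It was the most abundant of the 10 genes in KO replicate 1, both in CPM and per length (87.4 CPM per kilobase). Krt72, a cuticle chain, had 4, 0 and 8 counts in the controls and 3 in KO replicate 2, and 1150 in KO replicate 1. That was 92.8 times the next library, control replicate 3, but with 8 counts there the interval ran from 46.9 to 215. Krt73, also of the cuticle, had 26, 20 and 12 counts in the controls, 1575 in KO replicate 1 and 15 in KO replicate 2, a ratio of 84.7 (48.4 to 164) to the next library. The intervals of the 3 cuticle keratins overlapped one another and that of Krt25, so their order is not resolved at this depth.

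Krt74 did not follow its neighbours. RefSeq and GENCODE list mouse Krt74 as a transcribed pseudogene, whereas human KRT74 encodes a sheath keratin. It had 14, 0 and 2 counts in the controls, 10 in KO replicate 1 and 8 in KO replicate 2. The level in KO replicate 1 (0.196 CPM) was 1.05 times that in KO replicate 2 (0.187 CPM), with a counting interval of 0.373 to 3.06. Both KO values lay above the control values of 0.166, 0 and 0.0607 CPM, but all rest on at most 14 counts, and Krt74 was too low to be tested. Its transcript shares an exact run of 88 bases with Krt71 and 77 bases with Krt73, so some of its few reads could belong to those genes.

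Tchh, the gene for trichohyalin, was the most abundant of the 10 genes in CPM outside KO replicate 1. It had 735, 555 and 298 counts in the controls, 8544 in KO replicate 1 and 312 in KO replicate 2. The controls were close together at 8.72, 7.24 and 9.04 CPM, KO replicate 2 lay within them at 7.28 CPM, and KO replicate 1 stood at 167 CPM. The ratio to the next library was 18.5 (16.5 to 20.8), below the intervals of Krt25, Krt26, Krt27, Krt71, Krt72 and Krt73 and overlapping that of Krt28. Tchhl1, a related gene of the same fused-type S100 family, had 79, 48 and 30 counts in the controls, 425 in KO replicate 1 and 44 in KO replicate 2. Its ratio of 8.1 (5.93 to 11.3) was the smallest of the 9 tested genes. At 1.03 CPM in KO replicate 2 and 8.32 CPM in KO replicate 1, it was the only tested gene of the 10 whose KO and control values did not overlap (controls 0.937, 0.626 and 0.91 CPM). Values did not overlap for 39.9% of all tested genes.

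In the comparison of KO with control across all genes, 0 of the 9 tested sheath genes passed an adjusted p of 0.05 (edgeR quasi-likelihood test, Benjamini-Hochberg over 17472 genes), where 3.76% of all genes passed. The fitted log2 fold changes of the 9 genes were all positive, with a median of 5.17 against -0.02 over all tested genes. Krt71 was fitted at 5.17 (SE 2.01, edgeR adjusted p = 0.282), with a control mean of 2.85 ± 1.56 CPM (SD, n = 3) and a KO mean of 97.0 ± 133 CPM (SD, n = 2). Tchh was fitted at 3.40 (SE 1.45, edgeR adjusted p = 0.309), with a control mean of 8.33 ± 0.961 CPM (SD, n = 3) and a KO mean of 87.3 ± 113 CPM (SD, n = 2). In both, the SD of the KO group exceeded its mean, which is how far apart the 2 KO libraries were. Krt72 had the largest estimate, 7.40 (SE 2.79), and Tchhl1 the smallest, 2.52 (SE 0.86, edgeR adjusted p = 0.186). In the edgeR fit across all genes, 1 of the 9, Tchhl1, had an unadjusted p under 0.05. Krt26 and Krt72 passed the count filter through KO replicate 1 and control replicate 3 only, so these 2 entered the test because of the library in which they were high.

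The positive estimates came from KO replicate 1. Without it, with KO replicate 2 as the lone KO library, the median log2 fold change of the 9 genes was 0.02, and 4 of them had a negative sign. Krt71 was then at 0.02 (SE 0.52), Krt27 at 0.24 (SE 0.38), Tchh at -0.19 (SE 0.23) and Krt28 at -0.37 (SE 0.51). Without KO replicate 2, with KO replicate 1 as the lone KO library, all 9 estimates were positive, with a median of 6.14. Each of these fits assumes that the lone KO library varies as the controls do. The number of calls depended on the test: 6 of the 9 genes passed with edgeR's robust option off, where 657 of all 17472 genes passed. With DESeq2, which changes the scaling, the dispersion estimate and the test together, 4 of the 9 passed, where 1834 of 17472 did.

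**Figure D2:**
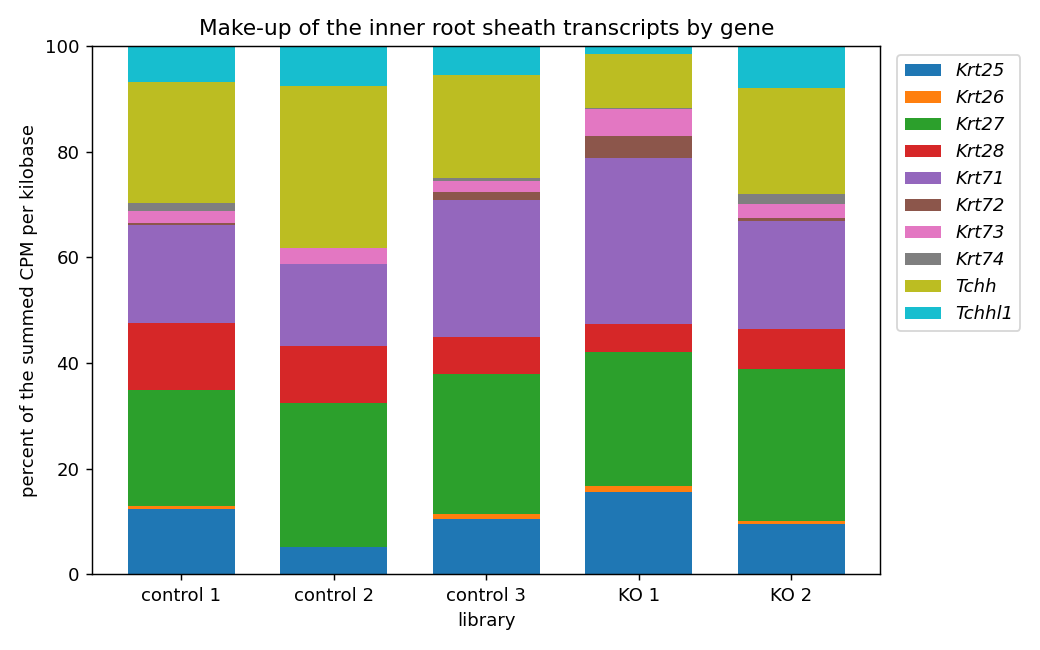
Share of each gene in the summed CPM per kilobase of the 10 genes, stacked to 100 percent for each library. KO replicate 1 has the largest parts of Krt25, Krt26, Krt71, Krt72 and Krt73 and the smallest parts of Krt28, Tchhl1 and Tchh. The part of Tchh is 10.3% against 19.5% to 30.7% in the others.

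The make-up of the sheath transcripts in KO replicate 1 also differed from the other libraries. Levels of different genes are compared here as CPM per kilobase of the longest annotated transcript. Krt71 led in KO replicate 1 with 31.5% of the sum, followed by Krt27 with 25.3% and Krt25 with 15.5%. In control replicates 1 and 2 Tchh led, with 22.8% and 30.7%, and in control replicate 3 and KO replicate 2 Krt27 led, with 26.6% and 28.6%. This order rests on the length scaling, since in CPM alone Tchh was the highest in each of these 4 libraries. The share of Krt72 was 4.15% in KO replicate 1 and at most 1.56% elsewhere, and that of Krt73 was 5.12% against 2.11% to 2.97%. Tchhl1 went the other way, with 1.45% in KO replicate 1 against 5.54% to 7.94%, and so did Krt28, with 5.32% against 7.04% to 12.7%. The share of Krt27 hardly set the libraries apart, since 25.3% in KO replicate 1 lay within the 21.8% to 28.6% of the others. The annotated Tchh model begins at its start codon, so that its length may lack untranslated sequence and its level per kilobase may be too high in every library alike.

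Since each filament pairs a type I with a type II chain, the summed type I keratins were set against the summed type II keratins. Per kilobase, KO replicate 1 had a ratio of 1.16 (95% counting interval 1.13 to 1.19), from 131 CPM per kilobase of type I and 113 of type II. The ratio was 2.08 (1.79 to 2.43), 2.32 (1.85 to 2.91) and 1.5 (1.22 to 1.85) in the controls and 1.81 (1.46 to 2.25) in KO replicate 2. KO replicate 1 therefore had the lowest ratio of the 5, below the interval of each other library. With 1 such library there is no replicate error for this difference.

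The level outside KO replicate 1 also varied from library to library. Control replicate 2 had the lowest value of the 5 libraries for all 10 genes, and control replicate 3 had the highest value of the 3 controls for 7 of them. The deviation from the 5-library mean on the log2 CPM scale, averaged over the 9 tested genes, was -1.95 in control replicate 2, -0.96 in control replicate 1, -0.60 in control replicate 3, -1.03 in KO replicate 2 and 4.54 in KO replicate 1. The whole spread among the other 4 libraries was thus small beside the distance to KO replicate 1.

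The genes lie in 3 blocks of the genome. On GRCm38, Krt25, Krt26, Krt27 and Krt28 follow each other on chromosome 11 between 99315516 and 99374903, inside the type I keratin cluster. Krt71, Krt74, Krt72 and Krt73 follow each other on chromosome 15 between 101733949 and 101802360, inside the type II cluster. Tchh and Tchhl1 are neighbours on chromosome 3 between 93442330 and 93471980, in the epidermal differentiation complex. All 8 keratin genes are on the minus strand and both trichohyalin genes on the plus strand. The RefSeq gene Gm32502 overlaps Krt25 and Krt26, and the GENCODE noncoding gene Gm37245 lies opposite Tchh. Whether the counting used strand is not stated, so reads of such partners cannot be separated.

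The genes directly next to the blocks did not share the high level in KO replicate 1. Krt24, next to Krt25, had 9454, 5842 and 3729 counts in the controls, 7032 in KO replicate 1 and 5244 in KO replicate 2, a ratio of KO replicate 1 to the next library of 1.12. Krt10, the type I keratin of suprabasal epidermis and the gene after Krt28, had a ratio of 0.87. On chromosome 15 the flanking genes were Krt5, the type II keratin of basal epidermis, with a ratio of 0.908, and Krt2, of the upper epidermis, with 0.979. On chromosome 3 they were Rptn (repetin) with 0.818 and S100a11 with 0.986. None of these 6 flanking genes passed the KO against control test (edgeR adjusted p between 0.232 and 0.893). Further away, other genes were also high in KO replicate 1, such as Krt31 on chromosome 11 (ratio 15.2) and Krt81 on chromosome 15 (23.3). So was Crnn, listed below with the genes near Tchh (17.5). Krt6b, on chromosome 15, stood apart in the other direction, with 14 counts in KO replicate 1. It had 182, 837 and 101 counts in the controls and 69 in KO replicate 2. The genes named here beyond the flanks were chosen after their values were seen.

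**Figure D3:**
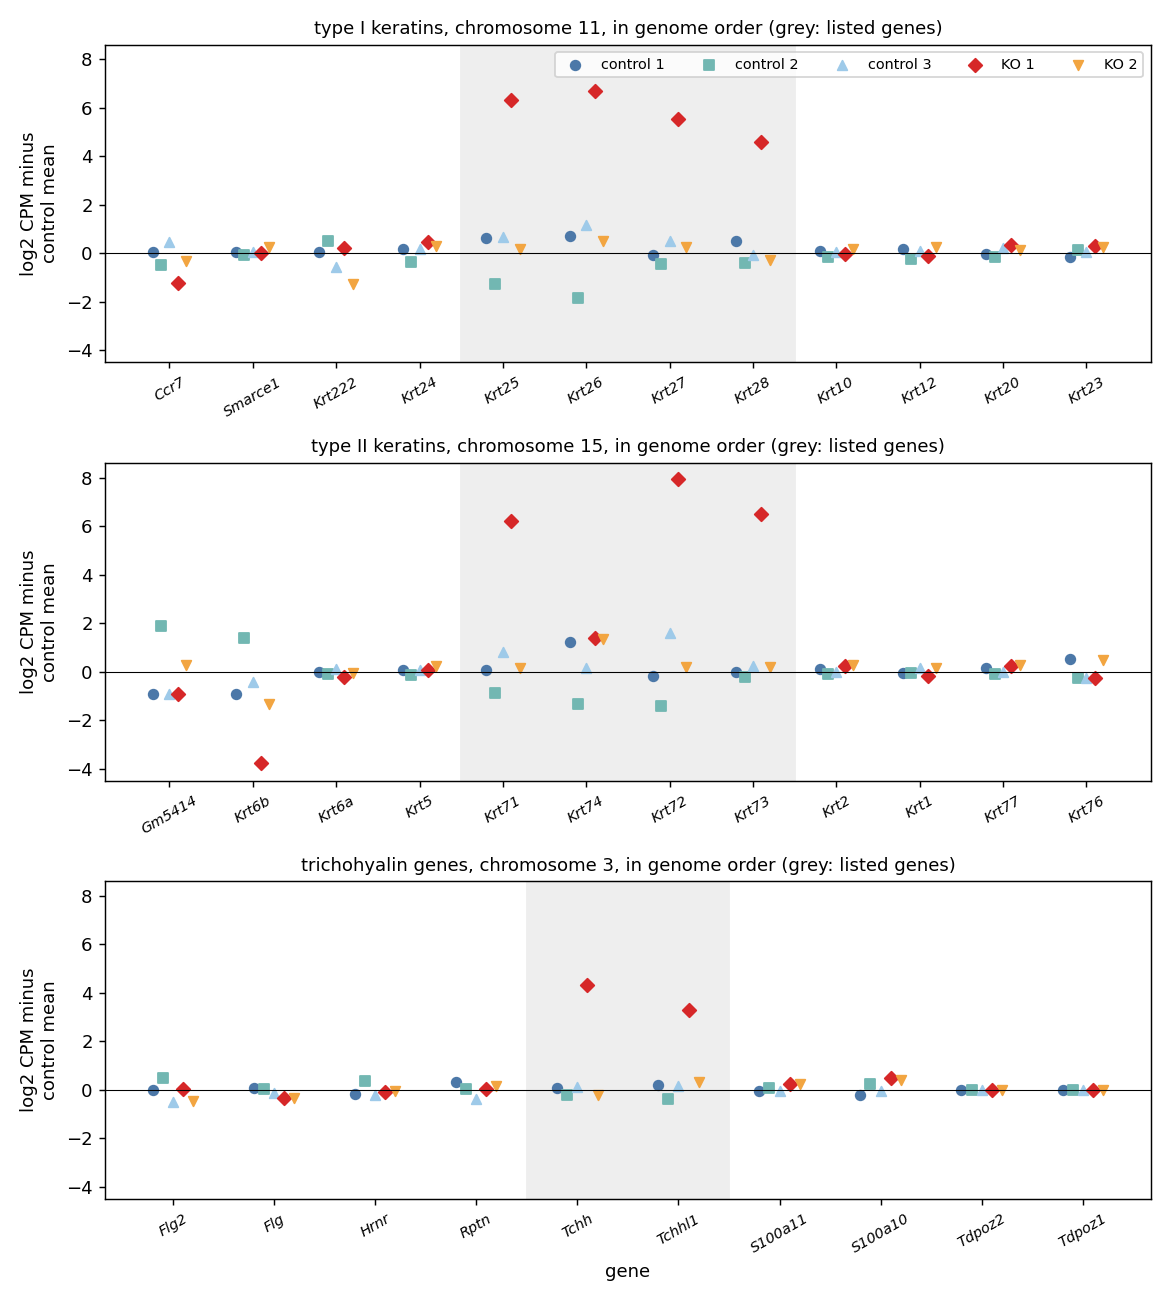
Log2 CPM of each library minus the control mean for the listed genes (grey) and up to 4 protein-coding genes on each side, in genome order but not to scale, on chromosomes 11, 15 and 3. KO replicate 1 is 3.30 to 7.93 above the control mean at the listed genes other than Krt74 (1.40), and between -0.04 and 0.48 at the 6 genes flanking the blocks.

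The bases just before the start of these genes were read from RefSeq windows (GRCm38.p6), which were given for 9 of the 10 genes, Krt74 being the one without. They are shown because 9 genes in 3 separate blocks were high in the same library. Below are the 100 bases before the annotated start of the 7 keratin genes, written 5′ to 3′ on the gene's own strand, with the letters TATAAA in capitals. All lie on the minus strand: Krt25 at chr11:99322952-99323051, Krt26 at chr11:99337966-99338065, Krt27 at chr11:99351119-99351218, Krt28 at chr11:99374904-99375003, Krt71 at chr15:101743098-101743197, Krt72 at chr15:101786521-101786620 and Krt73 at chr15:101802361-101802460.
Krt25: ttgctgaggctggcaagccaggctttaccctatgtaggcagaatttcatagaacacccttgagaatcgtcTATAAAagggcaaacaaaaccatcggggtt
Krt26: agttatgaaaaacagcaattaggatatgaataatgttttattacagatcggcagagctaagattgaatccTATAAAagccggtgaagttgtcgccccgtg
Krt27: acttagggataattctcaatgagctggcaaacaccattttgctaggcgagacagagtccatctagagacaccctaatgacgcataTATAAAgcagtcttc
Krt28: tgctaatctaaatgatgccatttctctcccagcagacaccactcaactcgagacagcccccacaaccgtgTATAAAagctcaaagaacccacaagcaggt
Krt71: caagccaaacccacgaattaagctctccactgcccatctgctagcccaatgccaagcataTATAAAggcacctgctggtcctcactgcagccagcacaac
Krt72: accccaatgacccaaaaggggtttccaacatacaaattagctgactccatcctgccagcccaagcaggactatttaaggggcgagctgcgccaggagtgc
Krt73: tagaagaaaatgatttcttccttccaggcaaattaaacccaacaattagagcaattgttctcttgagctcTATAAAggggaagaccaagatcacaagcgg

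The letters TATAAA, the core of a TATA box, were present in 6 of the 9 windows within these 100 bases, and in 3.8% of 32851 RefSeq windows. All 6 belong to keratin genes of the type I and type II clusters, so these windows may not be independent. Whether keratin genes outside the list share the letters was not tested. The letters began 30 bases before the start in Krt25, Krt26, Krt28 and Krt73, 40 bases before it in Krt71 and 15 bases before it in Krt27. These distances hold for the RefSeq starts only. GENCODE places the starts of Krt26, Krt27, Krt71 and Krt73 at other bases (99337966, 99351104, 101743109 and 101802346). Krt72 has no TATAAA within the 100 bases. Tchhl1 has none either, and the Tchh window begins at its start codon, so that it may not be a promoter. Over 300 bases and both strands, AGATAA, a core that GATA factors bind, was in 5 of 9 windows (Krt25, Krt27, Krt71, Krt73 and Tchh) and in 11.2% of all windows. TAATTA, a homeodomain core, was in 4 of 9 (Krt25, Krt28, Krt71 and Krt73) and in 5.29% of all. CTTTGT, a core of LEF, TCF and SOX factors, and TGANTCA, the AP-1 core, were each in 1 of 9 (Krt25 and Tchhl1) and in 18.7% and 7.81% of all. TAATTA can share its end bases with TATAAA and AGATAA. Matches of a few letters describe these windows and show no binding.

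Of 9 listed deiminase and transglutaminase genes 8 were tested, 0 passed, and their median log2 fold change was 0.17. The 3 most abundant were Tgm1 (0.33, SE 0.12), Tgm3 (-0.23, SE 0.14) and Tgm2 (0.03, SE 0.12), which are also expressed outside the hair follicle. Padi3, the deiminase of the sheath and hair, had 34, 11 and 6 counts in the controls, 533 in KO replicate 1 and 18 in KO replicate 2. It was thus 24.8 times higher in KO replicate 1 than in any other library, and the only enzyme of the list past 5 times. Padi1, named after its values were seen, came next with a ratio of 2.3, from 62, 45 and 26 counts in the controls, 115 in KO replicate 1 and 42 in KO replicate 2.

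Among the 5 listed fused-type S100 genes near Tchh, 0 passed. Flg2, Hrnr and Flg, filaggrin-type proteins of the cornified epidermis, had log2 fold changes of -0.24 (SE 0.29), -0.08 (SE 0.17) and -0.33 (SE 0.12). Crnn, for cornulin, was named after its values were seen: it had 10, 11 and 11 counts in the controls, 298 in KO replicate 1 and 14 in KO replicate 2. Of the 5 keratins of the companion layer, the cell layer around the sheath, 0 passed. Krt75, its defining keratin, had 1664, 1239 and 633 counts in the controls, 2146 in KO replicate 1 and 897 in KO replicate 2, and a log2 fold change of 0.78 (SE 0.24, edgeR adjusted p = 0.0968). Krt17 was fitted at 0.46 (SE 0.12) and Krt6a at -0.14 (SE 0.12). Krt16 was fitted at -0.41 (SE 0.22) and Krt6b at -2.55 (SE 1.27), both named after their values were seen. The median of these 5 keratins was -0.14, with 2 of 5 positive.

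Of 12 transcription factors of follicle differentiation 0 passed and 0 reached 5 times the other libraries, though 5 had their highest value in KO replicate 1. Gata3, required for the inner root sheath and also expressed in epidermis and lymphocytes, had 19610, 18431 and 8025 counts in the controls, 13421 in KO replicate 1 and 8231 in KO replicate 2 (-0.07, SE 0.14). Sox21 was fitted at -0.09 (SE 0.15) and Ovol1 at -0.03 (SE 0.15). Besides Gata3 (ratio to the next library 1.08), the 5 were Hoxc13, Msx2, Lef1 and Dlx3, named after their values were seen. Hoxc13, a homeobox gene that drives hair keratin genes, had 5.11, 6.55 and 7.22 CPM in the controls, 13.1 CPM in KO replicate 1 and 7.66 CPM in KO replicate 2, a ratio of 1.71 (log2 fold change 0.73, SE 0.23, edgeR adjusted p = 0.103). The ratio was 1.31 for Msx2, 1.3 for Lef1 and 1.29 for Dlx3. Of 10 proliferation genes of the kind active in the hair matrix 0 passed, and their summed level of 341 CPM in KO replicate 1 lay within the 319 to 366 CPM of the other libraries. Mki67 (-0.12, SE 0.12), Top2a (-0.17, SE 0.12) and Tk1 (0.49, SE 0.12, edgeR adjusted p = 0.0501) were the most abundant. Such genes are also active in dividing epidermis.

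Of 10 follicle growth signals 0 passed. The 3 most abundant were Wnt10a (0.11, SE 0.18), Axin2 (-0.23, SE 0.15) and Bmp4 (0.03, SE 0.14). Shh, the hedgehog ligand made by matrix cells of growing follicles, was named after its values were seen, as the only one past 5 times: 8, 14 and 12 counts in the controls, 138 in KO replicate 1 and 3 in KO replicate 2. It was also the only 1 of the 10 with its highest value in KO replicate 1. The list median was -0.19, with 3 of 10 positive. Ptch1 and Gli1 of the same list, named after their values were seen, had ratios to the next library of 0.588 and 0.764. Of 6 dermal papilla genes 0 passed, with Sostdc1 at 0.02 (SE 0.13), Corin at -0.60 (SE 0.16) and Rspo3 at -0.10 (SE 0.20). Of 9 bulge stem cell genes 0 passed, with Krt15 at 0.29 (SE 0.13), Cd34 at 0.18 (SE 0.13) and Sox9 at -0.14 (SE 0.13).

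Keratins of the hair shaft, the structure inside the sheath, were high in the same library. Of 16 listed, Krt85 had no row in the table and Krt39 was too low to be tested. Of the 14 tested, 12 were at least 5 times higher in KO replicate 1 than in any other library, against 0.475% of all tested genes. In the KO against control test 0 of the 14 passed. Their summed level was 148 CPM in KO replicate 1 against 9.11, 11.4 and 25.5 CPM in the controls and 16.4 CPM in KO replicate 2. Krt35 had 21, 38 and 40 counts in the controls, 1469 in KO replicate 1 and 21 in KO replicate 2. The 2 exceptions were Krt32, with a ratio of 1.93, and Krt84, with 0.414. Among the 12, Krt33b, Krt36 and Krt40 (named after their values were seen) passed the count filter only through KO replicate 1 and control replicate 3. Their place among the tested genes thus rests on the library in which they were high.

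The genes outside the 10 whose profile over the 5 libraries was nearest to the mean of the sheath genes were hair shaft keratins, keratin-associated protein genes and Padi3. Likeness was the root mean square difference in log2 CPM deviations over 5 libraries, which share KO replicate 1 as their one high point. The nearest was Krt31 at 0.45, followed by Krtap7-1 (0.46), Krt81 (0.48), Krt33b (0.49), Krtap4-7 (0.52), Krtap10-10 (0.54), Krtap8-1 (0.54), Krtap11-1 (0.55), Padi3 (0.57) and Krtap2-4 (0.58). The Krtap genes encode keratin-associated proteins, the matrix between the keratin filaments of the hair shaft. For scale, the 9 sheath genes lay between 0.22 (Krt27) and 1.05 (Krt72) from their own mean, to which they contribute. Krtap11-1 had 4, 4 and 10 counts in the controls, 402 in KO replicate 1 and 4 in KO replicate 2. These genes lie on chromosomes 4, 10, 11, 15 and 16, and 0 of the 10 passed the test (edgeR adjusted p between 0.235 and 0.344). Of the 10, Krt33b, Krtap11-1 and Krtap2-4 passed the count filter only through KO replicate 1 and control replicate 3.

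**Figure D4:**
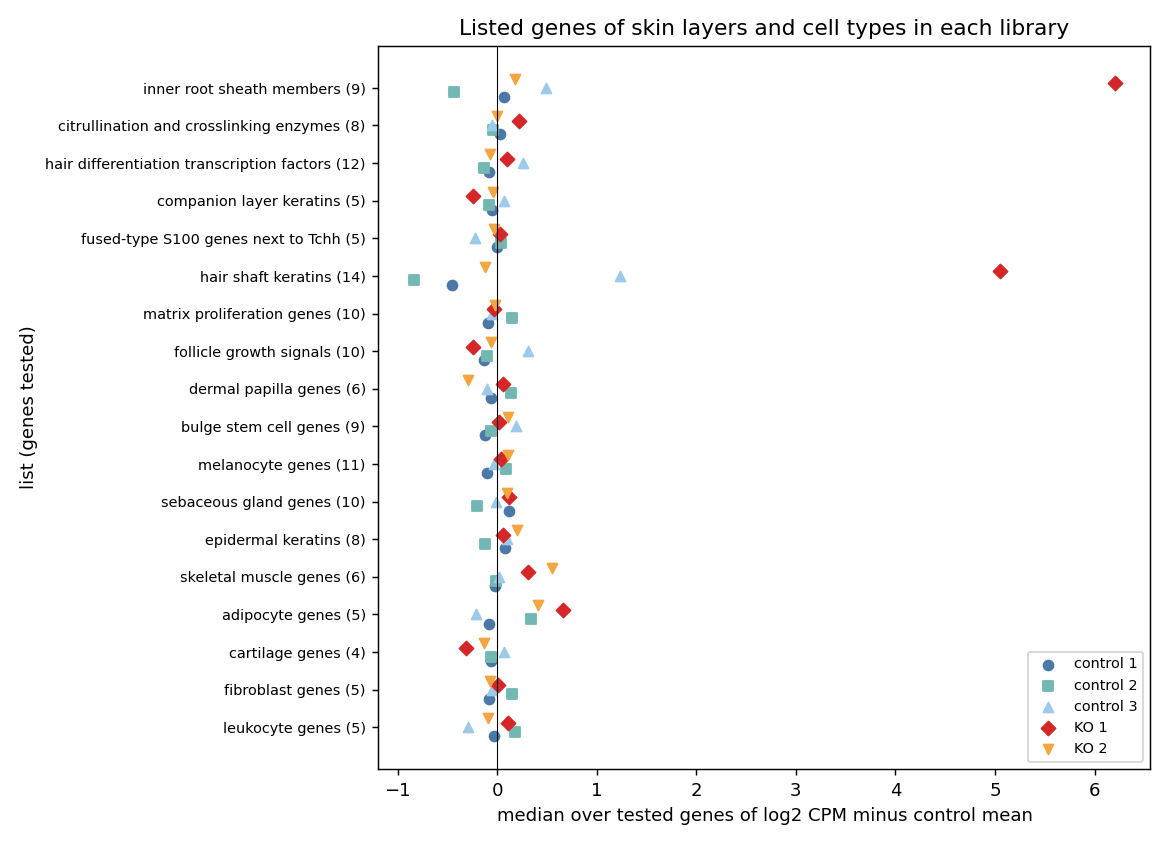
Median over the tested genes of each list of log2 CPM minus the control mean, for each library, with the number of tested genes in parentheses. KO replicate 1 stands at 6.21 for the sheath genes and 5.05 for the hair shaft keratins, and between -0.31 and 0.66 for the other 16 lists.

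Other cell types of the ear did not separate KO replicate 1 in this way. Epidermal keratins, the markers that define skin epithelium, were abundant in every library, summing to 35900 to 45200 CPM with KO replicate 1 at 41500 CPM, and 0 of 8 passed. Krt10 (0.06, SE 0.13), Krt2 (0.24, SE 0.12) and Krt5 (0.15, SE 0.13) were the highest. Of 11 melanocyte genes 0 passed, and their sum in KO replicate 1, 336 CPM, lay within the other libraries (299 to 362 CPM). Dct had a log2 fold change of 0.28 (SE 0.12), Pmel 0.15 (SE 0.12) and Tyrp1 -0.17 (SE 0.14). Of 10 sebaceous gland genes 1 passed, Awat2, a wax synthase, as higher in KO (0.65, SE 0.14, edgeR adjusted p = 0.032). Scd1 (-0.01, SE 0.12), Mgst1 (0.08, SE 0.17) and Soat1 (-0.18, SE 0.13) led that list. Fibroblast genes (0 of 5 passed; Col3a1 -0.04, SE 0.13; Col1a1 -0.18, SE 0.20; Dcn 0.09, SE 0.17), cartilage genes (0 of 4 tested; Acan -0.40, SE 0.13; Col2a1 -0.21, SE 0.21; Col9a1 -0.26, SE 0.12) and leukocyte genes (0 of 5; Csf1r 0.06, SE 0.12; Ptprc -0.20, SE 0.20; Itgam -0.12, SE 0.17) gave no calls.

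Muscle and fat genes, when summed, had higher levels in each KO library than in any control. The sums were 3830 and 4480 CPM for 6 muscle genes (3040 to 3260 CPM in controls) and 1130 and 984 CPM for 5 adipocyte genes (564 to 940 CPM in controls). Gene by gene, KO and control values overlapped for Myh2, Plin1 and Lep, named after their values were seen. Taken as single genes, 39.9% of all tested genes had KO and control values that did not overlap. Of the muscle genes 1 passed, Mylpf, a fast-twitch myosin light chain (0.60, SE 0.13, edgeR adjusted p = 0.0329), while Acta1 (0.43, SE 0.13) and Myh4 (0.09, SE 0.11) did not. Of the adipocyte genes 1 passed, Cfd, the gene for adipsin (0.71, SE 0.15, edgeR adjusted p = 0.0351), while Fabp4 (0.53, SE 0.21) and Adipoq (0.52, SE 0.17) did not. Whether the make-up of the ear piece had a part in the sheath values was not tested.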

How the data were processed

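Total RNA of ear skin was sequenced. The authors deposited whole-number read counts per Entrez gene, not normalized. FastQC, HISAT2 2.0.4, DESeq2 1.16.1 and build GRCm38 (mm10) are named per the submitters' processing notes. Which program counted the reads, with which strand setting and rule for shared reads, is not stated in the sources used here. Reads shared by similar keratins (an exact run of 105 bases in Krt25 and Krt27) could be misassigned.

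Groups and replicate numbers came from the sample titles. Symbols were matched through RefSeq (25275 of 27179 identifiers), and transcript lengths came from GENCODE M21. filterByExpr left 17472 genes. KO and control were compared with edgeR 4.0.16 (R 4.3.3; TMM factors 0.936 to 1.07, robust quasi-likelihood F test, Benjamini-Hochberg, threshold 0.05). Log2 CPM used a prior count of 2. Pairs of libraries of a group differed by 20.2 to 67.2 chi-square per degree of freedom, more than repeat sequencing of the same library would give. This does not show whether the libraries came from separate mice, and pairs across the groups were not compared. The alternatives were other scalings and filters, robust off, DESeq2 1.42.0, limma 3.58.1 voom with sample quality weights, no length scaling of shares and ratios, a replicate block, length and GC offsets (mgcv), and leaving out each replicate.

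The members and lists were chosen with earlier results of these data known. The text names all members, Cd1d1, the 3 most abundant genes of each other list and the 10 nearest profiles. Other genes are said to be chosen after their values were seen, or are the only called gene of a list or the flank of a block.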

Additional observations from a re-analysis of the deposited data

How the results depend on the processing

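All 9 tested sheath genes kept a positive estimate under each scaling, filter, tool, block and offset alternative that tested them (7 were left with at least 10 counts in every library). Across all genes, 657 passed, 474 higher and 183 lower. This count was 1242 with library size alone (268 higher, 974 lower, with a median of all genes of -0.16), 1036 without a count filter, 1834 with DESeq2, 4662 with limma voom with sample quality weights and 2037 with the replicate block. With a replicate left out it lay between 0 and 3234: 0 by edgeR without control replicate 1 (2269 with an unadjusted p under 0.05), 1324 without control replicate 2, 3234 without control replicate 3, 0 without KO replicate 1 (1892 with an unadjusted p under 0.05) and 109 without KO replicate 2. Of the sheath genes 6 passed with robust off (edgeR), 4 with DESeq2 and 2 with the replicate block (Krt26 and Krt72), and between 0 and 9 with a replicate left out, the 9 without KO replicate 2. Their median log2 fold change of 5.17 was 4.59 with at least 10 counts in every library, where the most changed genes are no longer tested, 3.14 with limma voom with quality weights and 4.16 with the replicate block, and lay between 0.02 (without KO replicate 1) and 6.14 with a replicate left out. The cause of the other differences was not tested. With a replicate left out Krt25 lay between -0.02 and 6.17, Krt28 between -0.37 and 4.58, Krt72 between -0.02 and 8.73 and Tchh between -0.19 and 4.33, each negative only without KO replicate 1. The labels give no pairing, so the block stands for a shared replicate number only. Deviations of same-numbered libraries from their group means correlated at 0.02 and 0.06. With 2 KO libraries these deviations mirror each other, so the correlations cannot show whether libraries were paired. Without length scaling each of the 5 type I to type II ratios moved beyond its counting interval, to 0.944 in KO replicate 1 and 1.18 to 1.72 in the others, with the same library lowest. The share of Tchh, as a mean over the libraries, was then 43.7% instead of 20.7%, that of Krt27 15% instead of 25.9%, of Krt28 5.15% instead of 8.67%, of Krt73 2.47% instead of 2.99% and of Tchhl1 4.39% instead of 5.87%. Depth limits Krt26, Krt72 and Krt74, with at most 14 counts outside KO replicate 1.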
